A study of Rattus norvegicus with 6 samples.

Results

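The genes described here build, feed and shape the endoplasmic reticulum (ER) of the rat liver. The 42 genes encode the translocon and its partners, the signal recognition particle and its receptor, the signal peptidase, the oligosaccharyltransferase, enzymes at both ends of N-glycosylation, and proteins that curve and join ER membranes, among them Reep6. They were chosen by name, and every probe set with 1 of these names in the platform annotation was used. Srpr was found under its current symbol Srpra. All 42 genes were on the array with 69 of its 31099 probe sets, out of 14217 genes with a name there, and each had at least 1 probe set bright enough to be tested among 9200 genes. Reep6 was included because its difference between the same 2 groups was already known, and the other genes were listed with earlier results of these data in view. The differences between groups are therefore given as a description.

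Liver RNA came from 6 male BrlHan:WIST@Jcl(GALAS) rats, with 1 Affymetrix array for each animal. In the momfluorothrin group, 3 rats received epsilon-momfluorothrin, a pyrethroid insecticide, in a powdered diet for 2 weeks. In the control group, 3 rats received the powdered diet with 0 ppm of the compound over the same period. All were bought at 4 weeks of age and held in quarantine for 1 week, and livers were taken at 7 weeks of age. The dietary dose is given as 3000 ppm in the titles and 5000 ppm in the sample characteristics, and it could not be settled here.

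Proteins bound for secretion or for membranes carry a signal sequence that the signal recognition particle captures on the ribosome. The ribosome then docks on the ER, the chain passes through the Sec61 channel, the signal peptidase removes the signal sequence, and the oligosaccharyltransferase adds a preassembled sugar tree to asparagine side chains. Glucosidases trim that tree so that lectin chaperones can bind. Hepatocytes secrete most plasma proteins along this route, and their ER also holds the cytochrome P450 enzymes. The smooth ER of the liver is known to expand under many inducers of drug metabolism. Reticulons and REEP proteins wedge hairpins into the membrane and so form tubules, which the atlastins fuse into a network.

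Signals are MAS5 intensities on a linear scale. Levels of different probe sets were used together only to rank genes by brightness, to choose a probe set and to sum markers. The brightest markers weigh most in such a sum. Median signals were 23.1 to 26.5 on the momfluorothrin arrays and 27.0 to 29.4 on the control arrays. The ratio of 3' to 5' Gapdh signal, which rises when RNA is degraded, was 1.23 to 1.28 in momfluorothrin livers and 1.23 to 1.28 in control livers. That of actin was 2.40 to 3.12 in momfluorothrin livers and 2.24 to 2.70 in control livers. All 9 hepatocyte markers on the array were bright enough to be tested, and their summed signal was 57395 to 62653 in momfluorothrin livers and 62193 to 69686 in control livers. Of these 9 markers 4 lay below the controls on every momfluorothrin array, against 9.23% of all genes tested, 3 were lower at an unadjusted p under 0.05, and their median log2 difference was -0.15. None passed an adjusted p of 0.05 in limma, the threshold used throughout. The part of this marker difference in the values below was not tested.

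Reep6, a hairpin protein of the ER membrane known from mouse and human photoreceptors, showed the widest difference of the set. Its signals were 2559, 1970 and 2173 in momfluorothrin livers, against 1145, 1065 and 721 in control livers. No momfluorothrin array overlapped a control array, and the lowest control value was that of replicate 3. The means were 2234 ± 299 in momfluorothrin livers and 977 ± 225 in control livers (SD, n = 3 each), a 2.32-fold difference, or 1.21 ± 0.17 on the log2 scale (SE). Reep6 was 1 of the 18 genes, 0.196% of those tested, that were higher past the adjusted threshold of 0.05 in limma, and this call is the reason it was included, so it is not offered as evidence. Reep6 passed in 5 of 11 alternatives that used all arrays and missed in the other 6, both other filters, robust eBayes and the replicate block among them. Of all genes tested, 99.7% had a lower log2 difference.

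The second Reep6 probe set gave the same picture. Its signals were 1243, 1013 and 1046 in momfluorothrin livers, against 624, 592 and 376 in control livers, with no overlap between the groups. The log2 difference was 1.08 ± 0.18 (SE). On both probe sets replicate 1 was the highest momfluorothrin array and replicate 3 the lowest control array. The 2 probe sets measure the same RNA samples and do not count as separate evidence. The Reep6 call rested on single arrays: without any 1 of the momfluorothrin replicates or without control replicate 2 the gene no longer passed, with adjusted p of 0.12, 0.109, 0.173 and 0.0656 in limma, while the log2 difference stayed between 1.01 and 1.34 whichever array was left out.

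Reep5, the close relative of Reep6 that bends ER tubules, was next. Its signals were 996, 879 and 945 in momfluorothrin livers, against 503, 647 and 718 in control livers. All 3 momfluorothrin arrays lay above all 3 control arrays, and the mean log2 difference was 0.61 ± 0.13 (SE). It did not pass the threshold over all probe sets (adjusted p = 0.149 in limma). A dimmer probe set of Reep5 had 136, 84.3 and 124 in momfluorothrin livers and 73.9, 74.7 and 83.3 in control livers. Its groups also did not overlap, although momfluorothrin replicate 2 exceeded the highest control by little, and its log2 difference was 0.54 ± 0.18 (SE).

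**Figure D1:**
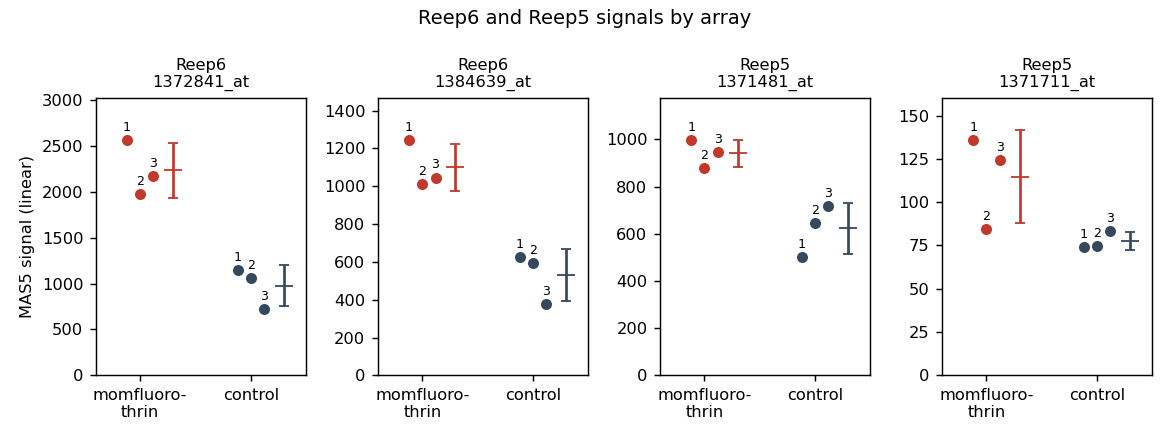
Linear MAS5 signal (vertical axis, from 0) of the 2 Reep6 and 2 Reep5 probe sets on each array. Numbered points are replicates, and bars are mean ± SD over 3 animals. The momfluorothrin points of Reep6 lie at 1970 to 2559 on the brighter probe set and all exceed the control points, which reach 1145.

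Rtn4, a reticulon, had signals of 524, 246 and 200 in momfluorothrin livers, against 140, 192 and 305 in control livers. Momfluorothrin replicate 1 alone stood above every control array, and its log2 difference of 0.55 ± 0.37 (SE) did not pass the test (adjusted p = 0.597 in limma). Atl2, an atlastin GTPase, had 764, 916 and 1034 in momfluorothrin livers and 956, 949 and 766 in control livers, and the groups overlapped fully. Its log2 difference was 0.02 with a 95% confidence interval of -0.28 to 0.32. Its paralogue Atl3 had a log2 difference of 0.04 ± 0.09 (SE). A dimmer probe set of Atl3 went the other way at -0.21 ± 0.11, with 154, 168 and 161 in momfluorothrin livers and 201, 185 and 174 in control livers, without overlap. Over 9 further shaping genes that were bright enough, among them Rtn3 and Reep4, the median log2 difference was 0.02 and no gene separated the groups. The 2 with the smallest p were Ktn1, an ER membrane receptor for kinesin, at -0.32 ± 0.17 and the small GTPase Rab18 at 0.13 ± 0.09 (SE, adjusted p = 0.503 and 0.586 in limma).

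Outside the shaping genes, Sec61b of the channel had the largest difference. Sec61b, a small tail-anchored subunit of the channel, had 1602, 1804 and 1794 in momfluorothrin livers, against 1264, 1211 and 1146 in control livers. The groups were well apart, at 1733 ± 114 in momfluorothrin livers and 1207 ± 59.5 in control livers (SD, n = 3 each), a 1.43-fold difference or 0.52 ± 0.08 on the log2 scale (SE, 95% confidence interval 0.33 to 0.71). Its adjusted p was 0.0636 in limma, 0.0418 with the robust variance model and up to 0.243 in other alternatives. Sec61g, the other small subunit, had 970, 1004 and 1127 in momfluorothrin livers, against 848, 813 and 849 in control livers. The lowest momfluorothrin array was again above the highest control array, with a difference of 0.30 ± 0.08 on the log2 scale (SE, limma adjusted p = 0.248).

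Sec61a1, which forms the pore, had 494, 577 and 698 in momfluorothrin livers, against 475, 416 and 402 in control livers. The groups did not overlap, but momfluorothrin replicate 1 exceeded control replicate 1 by little, and the log2 difference was 0.44 ± 0.13 (SE, adjusted p = 0.281 in limma). A dimmer probe set of the same gene gave 0.06 ± 0.09, with overlap. The accessory translocon genes had smaller differences. Sec62, which helps chains enter after their synthesis has finished, had 1297, 1205 and 1462 in momfluorothrin livers and 1389, 1240 and 1299 in control livers, a log2 difference of 0.01 with a 95% confidence interval of -0.20 to 0.22. Its second probe set had 819, 855 and 894 in momfluorothrin livers, against 957, 927 and 941 in control livers, so that all momfluorothrin arrays lay below the controls, at -0.14 ± 0.08 (SE). Its partner Sec63, a docking site for the chaperone BiP, was at 0.06 ± 0.11 on its brightest probe set and at -0.07, -0.11 and -0.48 on the other 3, the last with every momfluorothrin array below the controls. Tram1, which sits beside the channel, was at 0.07 ± 0.07 (SE).

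Of the translocon-associated protein complex, which contacts the emerging chain beside the channel, 2 of 4 genes were higher at an unadjusted p under 0.05 in limma, against 6.05% of all genes tested. Ssr4, its delta subunit, had 1350, 1520 and 1542 in momfluorothrin livers, against 1069, 1051 and 1129 in control livers. The groups were apart, with a difference of 0.44 ± 0.08 on the log2 scale (SE, limma adjusted p = 0.108). Ssr3, the gamma subunit, had 1014, 1364 and 1459 in momfluorothrin livers, against 1042, 911 and 1043 in control livers. Momfluorothrin replicate 1 lay within the control range and replicates 2 and 3 above it, a difference of 0.34 ± 0.14 on the log2 scale (SE, limma adjusted p = 0.403). On a second Ssr3 probe set the groups did not overlap and the difference was 0.43 ± 0.11, and on the remaining one it was 0.03 ± 0.14. Ssr2, the beta subunit, had 227, 299 and 285 in momfluorothrin livers and 247, 290 and 280 in control livers, and its groups overlapped. Ssr1, the alpha subunit, was at 0.15 ± 0.12 (SE).

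**Figure D2:**
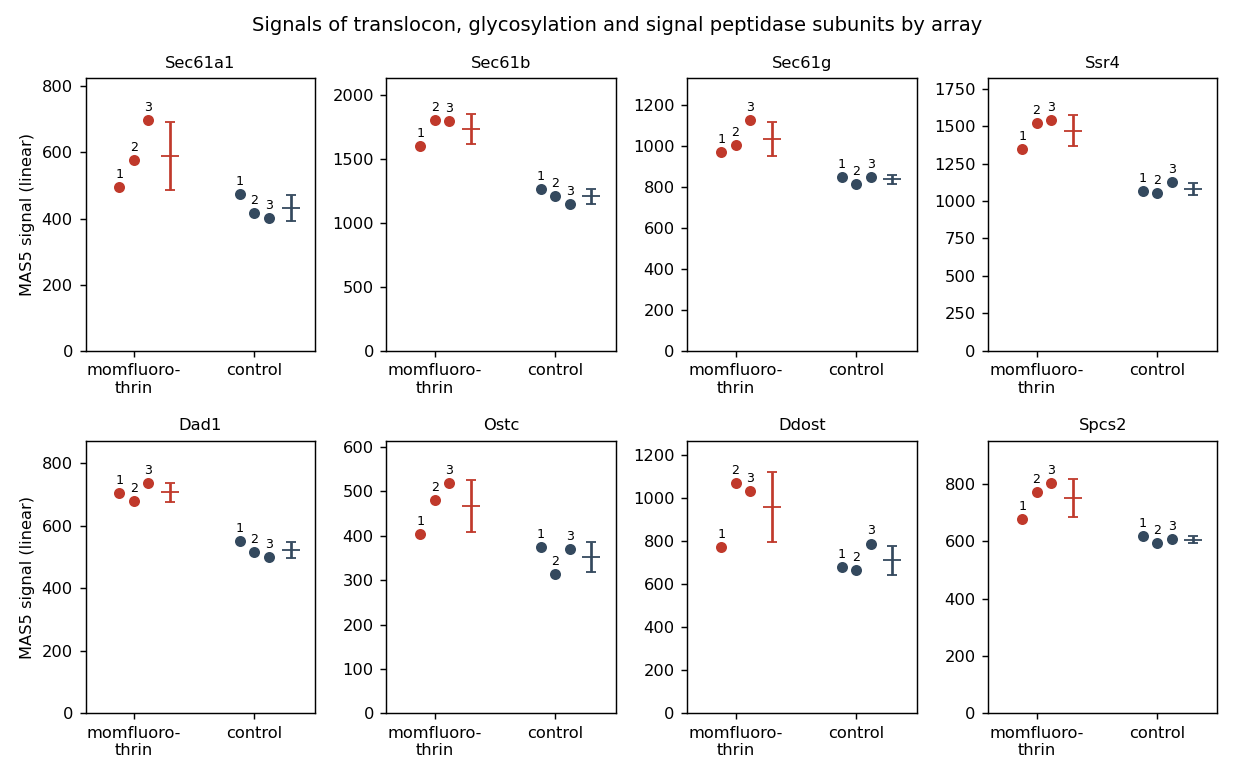
Linear MAS5 signal (vertical axes, from 0) of 8 subunits of the translocon, its associated complex, the oligosaccharyltransferase and the signal peptidase on each array, with numbered replicates and mean ± SD over 3 animals. In 7 of the 8 every momfluorothrin point exceeds every control point. In Ddost momfluorothrin replicate 1 falls below control replicate 3. The 8 were picked from genes higher at an unadjusted p under 0.05 in limma, so their separation is not evidence. Over all 37 genes other than the shaping genes, 11 lay above the controls without overlap, against 9.04% of all genes tested.

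Of the 9 oligosaccharyltransferase genes, 3 were higher at an unadjusted p under 0.05 in limma, against 6.05% of all genes tested. Dad1, a small subunit shared by both forms of the enzyme, had 704, 678 and 738 in momfluorothrin livers, against 550, 516 and 501 in control livers. The replicates were tight within each group and the groups were apart, with a difference of 0.44 ± 0.08 on the log2 scale (SE, limma adjusted p = 0.113). Ostc, which docks the STT3A form onto the translocon, had 404, 480 and 519 in momfluorothrin livers, against 374, 314 and 370 in control livers, again with no overlap. It differed by 0.40 ± 0.12 on the log2 scale (SE, adjusted p = 0.273 in limma). Ddost, a shared subunit that holds the complex together, had 771, 1071 and 1035 in momfluorothrin livers, against 678, 665 and 789 in control livers. Momfluorothrin replicate 1 lay below the highest control array, and the log2 difference was 0.42 ± 0.13 (SE, adjusted p = 0.305 in limma).

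The large and catalytic subunits of the same enzyme differed less. Rpn2, a shared scaffold subunit, had 1724, 1768 and 1851 in momfluorothrin livers and 1689, 1576 and 1689 in control livers. The groups did not overlap, but the log2 difference was only 0.11 ± 0.07 (SE). Rpn1 and the catalytic subunit Stt3b were at 0.11 ± 0.10 and 0.10 ± 0.08, and the oxidoreductase subunits Magt1 and Tusc3 at 0.10 ± 0.10 and 0.15 ± 0.17 (SE). Stt3a, the catalytic subunit that acts during translocation, had 57.6, 86.4 and 67.3 in momfluorothrin livers and 79.1, 74.1 and 77.5 in control livers. Its interval for the log2 difference, -0.53 to 0.23 at 95% confidence, included no difference, and the groups overlapped. Stt3a and Tusc3 were the dimmest of the 42 genes, with mean signals of 73.7 and 51.7 over the 6 arrays. The part of dimness in their differences was not tested.

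Among the 5 signal peptidase genes, Spcs2, a noncatalytic subunit, had 676, 772 and 804 in momfluorothrin livers, against 617, 593 and 608 in control livers. No arrays overlapped, and the log2 difference was 0.31 ± 0.09 (SE, adjusted p = 0.272 in limma). Spcs3, a subunit needed for the activity of the complex, had 1466, 1586 and 1766 in momfluorothrin livers and 1643, 1479 and 1333 in control livers, and these overlapped. The catalytic subunits Sec11a and Sec11c were at 0.19 ± 0.10 and 0.14 ± 0.17, and Spcs1 was at 0.15 ± 0.09 (SE). In Sec11a the groups did not overlap, at 414, 440 and 494 in momfluorothrin livers and 412, 363 and 407 in control livers.

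Of the 8 targeting genes, 0 were higher and 0 lower at an unadjusted p under 0.05 in limma. That compares with 6.05% and 6.18% of all genes tested, so these counts do not set the targeting genes apart. Without overlap, 2 of the 8 lay above the controls and 1 below, against 9.04% and 9.23% of all genes tested. Srpra, the docking subunit of the receptor, had 506, 536 and 623 in momfluorothrin livers, against 492, 408 and 511 in control livers. Momfluorothrin replicate 1 lay within the control range, and the log2 difference was 0.24 ± 0.12 (SE, adjusted p = 0.48 in limma). Srprb, the membrane-anchored GTPase subunit, had 516, 518 and 447 in momfluorothrin livers, against 537, 518 and 557 in control livers. On the brightest probe sets it was the 1 gene of the set with every momfluorothrin array below every control array, at -0.13 ± 0.09 (SE), and momfluorothrin replicate 2 and control replicate 2 were nearly equal. Its sign turned to 0.05 with median centring. The 6 particle proteins ranged from -0.08 for Srp19 to 0.18 for Srp68 on their brightest probe sets. Dimmer probe sets of Srp54a were at 0.21 ± 0.23 and -0.68 ± 0.55. Those of Srp72 were at -0.04 ± 0.14 and -0.41 ± 0.20 (SE). Srp68 and Srp14 separated the groups, by 0.18 ± 0.09 and 0.13 ± 0.08 on the log2 scale (SE). In Srp14 momfluorothrin replicate 2 and control replicate 2 were nearly equal.

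Of the enzymes that come before and after sugar transfer, 2 sugar donor genes and 3 glucosidase genes, 0 separated the groups. Of all genes tested, 9.04% lay above and 9.23% below the controls without overlap, so this count does not set these enzymes apart. Dpm1, the dolichol phosphate mannose synthase, had 926, 865 and 1046 in momfluorothrin livers and 890, 867 and 844 in control livers. Alg5, which makes dolichol phosphate glucose, had 465, 472 and 535 in momfluorothrin livers and 519, 506 and 460 in control livers. Both overlapped, at log2 differences of 0.12 ± 0.09 and -0.01 ± 0.10 (SE). Prkcsh and Ganab, the beta and alpha subunits of glucosidase II, were at 0.12 ± 0.11 and -0.09 ± 0.10. For Prkcsh the signals were 526, 600 and 574 in momfluorothrin livers and 522, 466 and 586 in control livers, and for Ganab they were 284, 252 and 256 in momfluorothrin livers and 286, 258 and 298 in control livers. Mogs, which removes the outermost glucose, was at -0.03 ± 0.11 (SE).

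By role, the median log2 difference was 0.55 over the 5 shaping genes, 0.25 over the 4 translocon-associated genes and 0.19 over the 6 translocon genes. It was 0.15 over the 5 signal peptidase genes, 0.11 over the 9 oligosaccharyltransferase genes and 0.11 over the 8 targeting genes. It was 0.05 over the 2 sugar donor genes and -0.03 over the 3 glucosidase genes. The shaping median was Rtn4 itself, and it was 0.14 without momfluorothrin replicate 1 and 0.29 without control replicate 1. The shaping genes include Reep6, which was chosen for its difference in this contrast, and their median was not taken without it. Single arrays moved other medians too. The targeting median was 0.04 and the oligosaccharyltransferase median 0.18 without control replicate 1, and the signal peptidase median was 0.25 without momfluorothrin replicate 1. The targeting median was 0.03 with the mean over probe sets. The sugar donor median was -0.02 without momfluorothrin replicate 3 and 0.02 without control replicate 3. The glucosidase median was 0.03 without momfluorothrin replicate 1 and 0.04 without control replicate 1. No test compared the roles with each other.

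**Figure D3:**
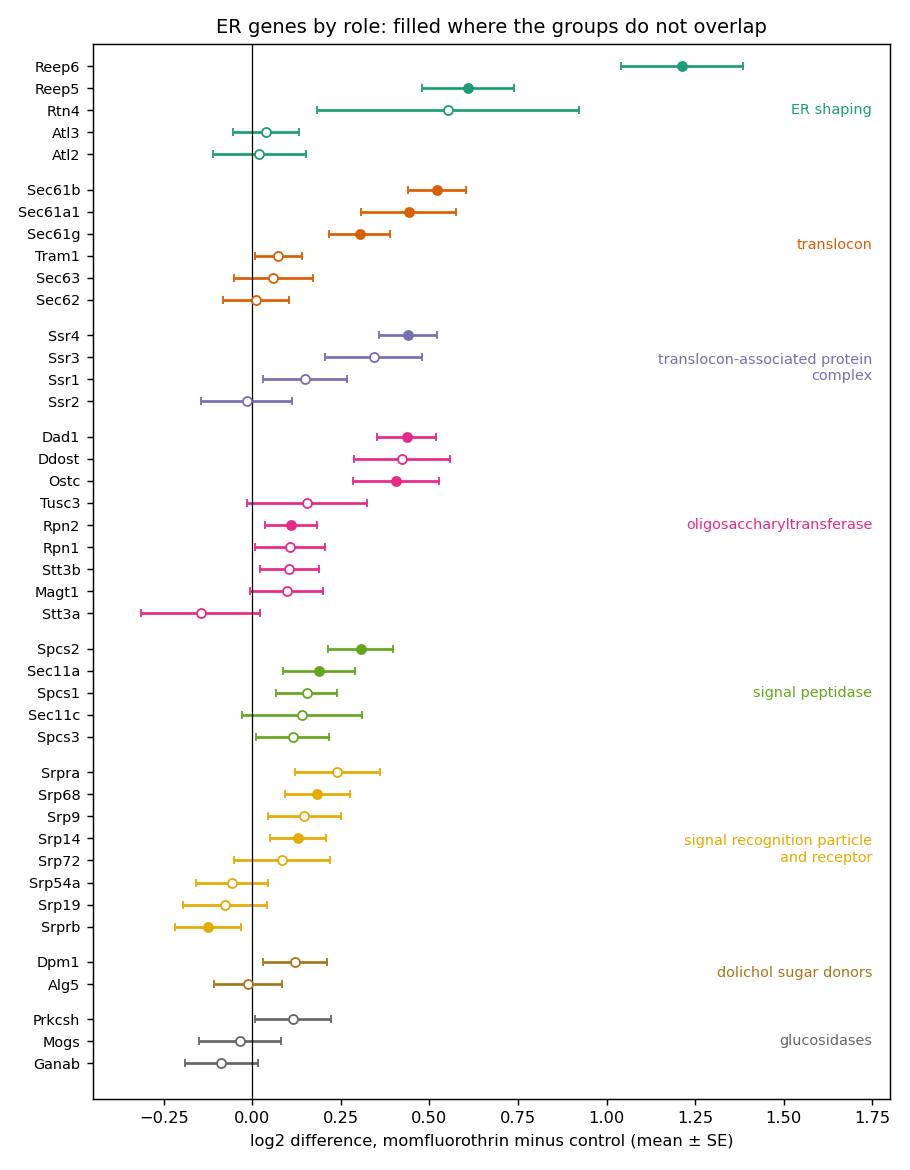
Log2 difference, momfluorothrin minus control, with its SE (horizontal axis) for the 42 genes grouped by role. Filled points mark genes whose groups do not overlap. The filled points in the translocon are the 3 Sec61 subunits, at 0.30 to 0.52, and Reep6 stands alone at 1.21.

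Over the whole set, 1 of 42 genes was higher past the adjusted threshold, against 0.196% of all genes tested, and none was lower, against 0.0217%. At an unadjusted p under 0.05 in limma, 11 of 42 were higher and 0 lower, against 6.05% and 6.18% of all genes. The higher count was 19 with median centring, which moved the median log2 difference of all genes to 0.16. The share of all genes at that p was not taken there, so 6.05% is not its background. All 3 momfluorothrin arrays lay above all 3 control arrays for 13 of 42, against 9.04%, and below them for 1, against 9.23%. The median log2 difference was 0.13, beside -0.01 over all genes tested, and 34 of the 42 differences were positive, against 47.5%. Of the 17 genes with several kept probe sets, 8 had differences of both signs: Atl2, Atl3, Dpm1, Sec62, Sec63, Srp54a, Srp72 and Tram1. Over all 65 kept probe sets of these genes, 16 lay above the controls without overlap and 4 below. The shares of all genes given above use the brightest probe set of each gene. No such share was taken over all kept probe sets of the array, so the probe set counts stand without a background. Without Reep5 and Reep6 the median was 0.12, with 9 of 40 higher at an unadjusted p under 0.05. These counts describe genes that were chosen with the contrast known, they came from the same 6 animals, and they are not independent of one another.

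Brightness bears on these counts, because dim genes tended to be lower and brighter genes higher in momfluorothrin livers. When the genes tested were split into 10 equal groups by mean log2 signal, the median log2 difference was -0.16 in the dimmest group and 0.04 and 0.02 in the brightest 2. Those 2 groups held 31 of the 42 genes. There, 12 of the 31 lay above the controls without overlap, beside 299 of the 1840 genes of like brightness, or 16.3%. The median of the 42 differences was 0.10 after the median of each gene's own brightness group was taken off, and 32 of 42 lay over that median, against 50.0% of all genes. What brightness contributes beyond this was not tested.

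**Figure D4:**
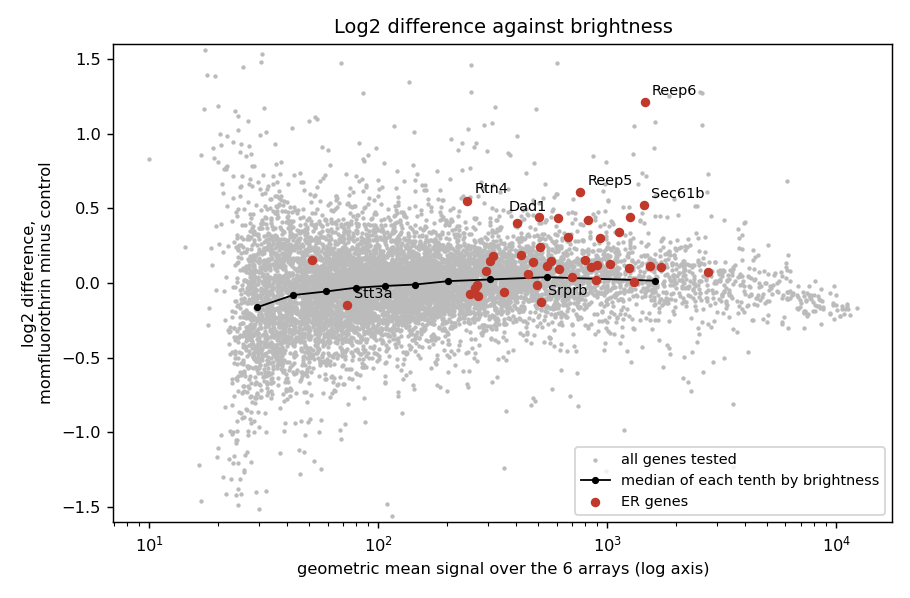
Log2 difference, momfluorothrin minus control (vertical axis, 20 genes lie beyond it), against the geometric mean signal over the 6 arrays (log axis) for 9200 genes in grey and the 42 ER genes in red. The black line joins the medians of 10 brightness groups. Most red points lie in the brighter part and above that line, with Reep6, Reep5, Rtn4 and Sec61b the highest.

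The momfluorothrin animals were not alike across these genes. Replicate 1 had the lowest signal of the 3 momfluorothrin arrays for 27 of the 37 genes other than the shaping genes, or 73.0%, against 32.7% of all genes tested. For 4 of the 5 shaping genes, Reep6 and Reep5 among them, it had the highest, against 34.6% of all genes tested. Control replicate 2 was the lowest control array for 21 of those 37 genes, or 56.8%, against 33.2% of all genes tested. Without momfluorothrin replicate 1, 21 of 42 genes lay above the controls without overlap, where 14.3% of all genes did.

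Of the genes of the same pathways outside the set, none passed the adjusted threshold. In limma, 4 of 56 were higher (7.14%) and 1 lower (1.79%) at an unadjusted p under 0.05, against 6.05% and 6.18% of all genes tested, so the higher count was near the background. Over 20 tested genes that assemble the sugar tree on dolichol the median log2 difference was -0.03, and the smallest p belonged to Alg9, a mannosyltransferase, at -0.31 ± 0.13, and Dolpp1, which recycles dolichol, at -0.25 ± 0.11 (SE, adjusted p = 0.429 and 0.443 in limma). Over 11 lectin chaperones and mannose-trimming genes it was 0.10. There Edem2 and Edem1, which mark misfolded glycoproteins for disposal, were at 0.30 ± 0.12 and 0.36 ± 0.15 (SE, adjusted p = 0.419 and 0.421 in limma). Over 16 other targeting and insertion genes it was 0.00, and the smallest p belonged to Get3, the ATPase that delivers tail-anchored proteins, at 0.32 ± 0.11, and Emc8 of the ER membrane complex at 0.33 ± 0.12 (SE, adjusted p = 0.332 and 0.366 in limma). In a list of electron carriers and other enzymes of the ER, among them Por, Fmo1 and Hmox1, 1 of 9 genes was higher past the threshold, against 0.196% of all genes tested. It was Ephx1, the microsomal epoxide hydrolase, with signals of 3374, 3998 and 3932 in momfluorothrin livers, against 2036, 1844 and 1560 in control livers. It rose by 1.06 ± 0.11 on the log2 scale (SE, adjusted p = 0.0109 in limma).

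In a piece of liver, fewer cells of a type and less RNA per cell cannot be told apart. Secretory cells other than hepatocytes could carry the same ER genes, so their markers were read. Of 5 plasma and B cell markers on the array only Jchain was bright enough to be tested, and the summed signal of the 5 was 63.8 to 67.2 in momfluorothrin livers and 96.3 to 129 in control livers. Jchain had 30.7, 35.9 and 33.8 in momfluorothrin livers, against 47.7, 77.7 and 68.0 in control livers. It lay below the controls without overlap, at -0.92 ± 0.21 on the log2 scale (SE, adjusted p = 0.181 in limma). Of 7 pancreatic acinar markers only Cela1 was tested, and their sum was 398 to 564 in momfluorothrin livers and 526 to 655 in control livers. The sum of 5 cholangiocyte markers was 149 to 175 in momfluorothrin livers and 99.7 to 137 in control livers, with Krt19, Krt7, Spp1 and Cftr too dim to be tested. The marker that was tested, Epcam, had 138, 107 and 134 in momfluorothrin livers, against 67.1, 83.1 and 95.1 in control livers, without overlap and at 0.63 ± 0.16 on the log2 scale (SE, adjusted p = 0.22 in limma). Endothelial markers summed to 1986 to 2115 in momfluorothrin livers and 1761 to 2030 in control livers, with Lyve1 above the controls at 0.31 ± 0.14 and Eng below at -0.45 ± 0.12 (SE). Kupffer cell markers summed to 1104 to 1342 in momfluorothrin livers and 1144 to 1462 in control livers, and stellate cell markers to 1906 to 2043 in momfluorothrin livers and 1729 to 2241 in control livers. The part of cell makeup in the differences above was not tested.

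Promoters were read for letters that ER stress factors are known to bind in mammals, since several of these genes lay above the controls together. RefSeq (build GRCr8) gave a promoter for 38 of the 42 genes under their symbols, and the 250 bases before the annotated start were searched on both strands. The full ER stress element (ERSE), a CCAAT and a CCACG at a fixed distance, was in 0 of 38. It was in 0.0657% of all 33469 promoters of that length and 0.164% of those of genes tested. Its second form, ERSE-II, was in 0 of 38, in 0.0418% of all and in 0.105% of those of genes tested. Both are so rare that 0 of 38 does not set these genes apart. The unfolded protein response element TGACGTGG was in 1 of 38, that of Srp19, in 0.52% of all and in 0.771% of those of genes tested. It overlaps the half-site CCACG, which was in 19 of 38 (50.0%) against 27.2% of all promoters and 41.4% of those of genes tested. CCAAT was in 14 of 38 (36.8%) against 34.0% and 35.6%.

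Of the 12 genes above the controls without overlap that had a promoter, 4 held CCACG and 4 held CCAAT, against 15 and 10 of the other 26. Of these 12, 4 are shown, the REEP pair and the leading subunits of channel and transferase, 5′ to 3′ on the strand of the gene, with CCACG and CCAAT or their reverse complements in capitals. Reep6 lies on the minus strand at chr7:10031272-10031521, Reep5 on the minus strand at chr18:26250661-26250910, Sec61b on the plus strand at chr5:66568934-66569183 and Dad1 on the minus strand at chr15:31667160-31667409.
Reep6: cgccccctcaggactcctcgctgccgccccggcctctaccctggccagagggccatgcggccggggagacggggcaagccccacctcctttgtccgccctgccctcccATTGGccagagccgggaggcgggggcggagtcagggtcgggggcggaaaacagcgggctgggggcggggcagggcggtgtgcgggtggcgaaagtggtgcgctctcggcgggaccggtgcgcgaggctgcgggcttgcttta
Reep5: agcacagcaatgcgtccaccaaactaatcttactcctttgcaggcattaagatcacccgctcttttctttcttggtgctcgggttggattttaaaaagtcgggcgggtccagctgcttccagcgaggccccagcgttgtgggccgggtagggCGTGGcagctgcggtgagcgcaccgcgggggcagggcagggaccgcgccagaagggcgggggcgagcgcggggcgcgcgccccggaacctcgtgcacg
Sec61b: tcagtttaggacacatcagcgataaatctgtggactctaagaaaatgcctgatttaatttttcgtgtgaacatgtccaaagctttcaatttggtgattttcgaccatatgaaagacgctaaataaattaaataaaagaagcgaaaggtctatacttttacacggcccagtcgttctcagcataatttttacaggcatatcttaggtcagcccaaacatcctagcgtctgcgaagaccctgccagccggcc
Dad1: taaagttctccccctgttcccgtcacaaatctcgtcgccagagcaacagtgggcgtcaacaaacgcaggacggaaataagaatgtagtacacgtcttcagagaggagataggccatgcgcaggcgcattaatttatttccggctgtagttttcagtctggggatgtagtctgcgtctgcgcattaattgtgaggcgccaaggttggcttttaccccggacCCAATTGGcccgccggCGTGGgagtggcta
Reep6 held 1 CCAAT, 142 to 138 bases before the start on the opposite strand, in a window of 74.8% G and C. Reep5 held 1 CCACG, 98 to 94 bases before the start. Dad1 held CCAAT on both strands, overlapping within the run that ends 23 bases before the start, and CCACG 14 to 10 bases before it. In Sec61b, whose window was 40.8% G and C, neither was found. A match describes letters only, and the window does not show what binds there.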

How the data were processed

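Liver RNA of 6 rats was labelled with biotin and hybridised to 1-colour Affymetrix arrays. The deposited values are probe set intensities made by the authors with MAS5, per the submitters' processing notes; version: not given in the sources used here. The mean signal with the outer 2% trimmed at either end was about 100 throughout, so no further scaling was applied. The table holds no detection calls. The number of arrays limits the precision of each value.

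Log2 was taken without a pseudocount. Control probe sets (57) were left out, and 15778 others were kept, those over the median of their array in 3 or more of the 6 samples. Each gene took the value of its brightest kept probe set, by mean log2 signal. Names came from GEO's platform annotation, in which 20826 probe sets had 1 symbol, 436 several and 9780 none, and 20758 of those with 1 symbol were matched to a GRCr8 gene table. Of the 69 probe sets of the 42 genes, 65 were kept. The 2-sided test was limma's moderated one (version 3.58.1, R 4.3.3; lmFit, eBayes with trend), and p-values were adjusted by Benjamini-Hochberg across the 15778. SE and intervals are those of this fit.

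The members and lists were chosen with earlier results of these data known. Signals of every array were given, by rule, for Reep6, for members past the threshold or at an unadjusted p under 0.05, and for the highest and lowest member of each role. Signals of Rpn2, Sec11a, Rtn4, Epcam, Jchain and second probe sets, and values of Lyve1 and Eng, were added after their values were seen.

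The fit was tested on simulated arrays for momfluorothrin against control (15778 probe sets, 10 runs of 200 changes). It recovered 14.5% of changes of log2 0.5, 55.4% of log2 1 and 87.9% of log2 2, and 4.38% of calls were false. The animals are separate per the labels. Equal replicate numbers did not deviate together (correlations of -0.0997, 0.105 and -0.0648 for the 3 pairs), so no block was used. The alternatives changed the filter, scaling, pseudocount, variance model, array weights, choice of probe set and pairing, and left out each array.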

Additional observations from a re-analysis of the deposited data

How the results depend on the processing

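Over 17 alternatives, the median log2 difference of the 42 genes was positive in all, at 0.08 to 0.30 with all arrays and 0.09 to 0.16 with 1 left out. The highest, 0.30, came from median centring, which moved the median of all genes to 0.16; relative to all genes the value was 0.14 there and in the reported setting, and 0.07 with quantile normalization. Genes without overlap above the controls numbered 11 to 21 of 42 with all arrays, 21 with median centring, where 23.0% of all genes did, and 14 to 21 with an array left out, where 12.8% to 14.6% of all genes did. Genes higher at an unadjusted p under 0.05 numbered 10 to 19 with all arrays and 9 to 14 with an array left out. The 19 came from median centring. No share of all genes at that p was taken in the alternatives, so these counts stand without a background. The number of all genes past the threshold, 20 as reported, was 50 with median centring, 2 without an intensity trend, 34 with robust eBayes, 13 with a replicate block and 4 to 21 with an array left out. The number among the 42 was 0 without a filter, with the filter at the 70th percentile, without an intensity trend, with the mean over probe sets and with the replicate block, 2 with median centring (Reep5 and Reep6) and 0 to 1 with an array left out. Robust eBayes called Sec61b and not Reep6.

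Reep6 kept its direction in all 17 and passed in 5 of 11 with all arrays and 2 of 6 with an array left out. It missed the threshold at the same log2 difference of 1.21 without a filter (adjusted p = 0.0529), with the stricter filter (0.0501), without a trend (0.212), with robust eBayes (0.0593) and with the replicate block (0.0564), and at 1.15 with the mean over probe sets (0.0573), all in limma; it was 1.01 to 1.34 with an array left out. The other 10 genes at an unadjusted p under 0.05 kept their sign in every alternative, and 2 of them, Reep5 and Sec61b, passed in 1 alternative each. Of the 22 genes named by rule, 8 changed sign in some alternative: Alg5, Atl2, Dpm1, Ganab, Sec62, Srprb, Ssr2 and Stt3a, with 0.16 the largest value after a change. The cause of these moves was not tested. In simulated data 14.5% of differences of log2 0.5 were recovered. That share was taken over all 15778 kept probe sets, dim ones included, with 200 changes per run. How often such a difference would be recovered among the genes described here was not tested. A missed threshold is therefore not read as a lack of difference.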
